A study of Hordeum vulgare with 12 samples.

Results

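The mean effect of both barley mutants over their wild types was examined in RNA-seq gene counts of the shoot base. It is the average of 2 differences, blf13 minus Bonus and nal1 minus Sebastian, so that each mutant is set against its own cultivar and the difference between cultivars cancels. All 12 of the 12 libraries of the series enter it, 6 from mutants and 6 from wild types. They come from 4 genotypes of barley (Hordeum vulgare), each with 3 biological replicates, and each replicate pools 6 plants. The genotypes are the mutant blf13 in the cultivar Bonus, the cultivar Bonus itself, the mutant nal1 in the cultivar Sebastian, and Sebastian itself. The plants were 7 days old and carried no treatment in the labels, and the material was the lowest centimetre of the shoot with its apex, after leaf 1 had been taken off. The series title describes blf13 as gaining function in barley's version of the rice gene NARROW LEAF1, and links it to wider leaves. The labels do not describe the nal1 allele or how far each line was crossed back to its cultivar, so any other genetic difference between a mutant line and its wild type is part of its effect.

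In rice, NARROW LEAF1 is known as a regulator of leaf width and vein number, and plants with reduced function have narrow leaves with changes in auxin transport and cell division. The base of a young grass leaf holds the zones where cells divide and begin to elongate, and the piece sampled here therefore contains growing leaf tissue as well as the apex. Averaging over both lines asks which transcripts are shifted in the same direction, on balance, in the mutants. The labels do not describe the nal1 allele. Whether both lines change the same gene, and its function in the same direction, was therefore not tested. Effects of opposite sign cancel in part or in full, so the mean can miss transcripts that rise in 1 mutant and fall in the other. An average can also pass a test through 1 mutant alone, so each effect is given beside it.

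Reads counted in genes came to 14831979 to 62995658 per library, with a median of 27400641, and 22437 genes had enough counts to be tested. Unmapped reads were 29.8% of the library in blf13 replicate 2 and 10.3% to 17.8% in the others. The files give gene IDs of the HORVU.MOREX.r3 series without names, and 0 of 81687 IDs matched the reference table of barley genes. Genes are therefore described by ID, level, chromosome and direction. The level of the mutated gene, and marker genes of the shoot base, could not be used to check the labels. Expression levels are given in CPM, the counts of a gene scaled to a common library total, with library sizes adjusted by TMM, a method that assumes most genes do not change. In bulk tissue, fewer cells of a type and less RNA per cell cannot be told apart.

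The 4 genes named for the largest changes in both mutants were weakly expressed, at mean levels of 1.41 to 5.63 CPM. The rule for naming them asked for an adjusted p under 0.05 for the mean effect, both with and without removal of the trend with level described further on. It also asked for the same direction in both mutants with an unadjusted p under 0.05 in each, no overlap between mutant and wild-type libraries in either cultivar, and at least 1 CPM in the higher genotype of each. Of the genes tested, 297 met it, 112 higher and 185 lower in the mutants, and the 2 with the largest mean change in each direction are given. Meeting it is not an adjusted test of each mutant. In the adjusted test of both mutants given further on, only HORVU.MOREX.r3.1HG0023140 of these genes passed. For HORVU.MOREX.r3.1HG0017340, HORVU.MOREX.r3.6HG0538340 and HORVU.MOREX.r3.7HG0725810 its edgeR adjusted p, without removal of the trend, was 0.194, 0.645 and 0.696. Adjusted p-values are from edgeR's quasi-likelihood test with Benjamini-Hochberg adjustment over all 22437 genes.

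HORVU.MOREX.r3.1HG0017340, on chromosome 1H, stood at 2.05, 2.43 and 2.06 CPM in blf13 replicates 1 to 3 and at 1.01, 0.587 and 0.651 CPM in Bonus. In nal1 it stood at 3.02, 2.33 and 2.16 CPM, against 0.215, 0.143 and 0.275 CPM in Sebastian. All 6 mutant libraries lay above all 6 wild-type libraries, and the lowest values, in Sebastian, rest on 5, 4 and 17 counts. Its mean log2 fold change was 2.50 (SE 0.19, edgeR adjusted p = 1.11e-05), made up of 1.55 (SE 0.25) in blf13 and 3.45 (SE 0.28) in nal1. The effect in blf13 minus that in nal1 was −1.89 on the log2 scale (edgeR adjusted p = 0.0131 for the difference).

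HORVU.MOREX.r3.1HG0023140, also on 1H, stood at 3.24, 2.57 and 3.18 CPM in blf13 and 1.16, 1.10 and 1.02 CPM in Bonus. Its values in nal1 were 3.69, 3.47 and 3.10 CPM, and in Sebastian 0.646, 0.644 and 0.582 CPM. Here too no mutant library overlapped a wild-type library, also across cultivars. The mean log2 fold change was 1.96 (SE 0.12, edgeR adjusted p = 1.14e-06), with 1.45 (SE 0.16) in blf13 and 2.46 (SE 0.17) in nal1, and these effects differed as well (edgeR adjusted p = 0.0269).

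In the other direction, HORVU.MOREX.r3.6HG0538340, on 6H, stood at 2.82, 1.63 and 0.874 CPM in blf13 against 8.85, 11.7 and 7.90 CPM in Bonus. In nal1 it stood at 3.02, 5.46 and 2.56 CPM against 6.67, 7.98 and 8.02 CPM in Sebastian. As the rule asked, the groups did not overlap, although nal1 replicate 2 came nearest to the wild type and the 3 libraries of each mutant were spread widely. The mean log2 fold change was −1.69 (SE 0.23, edgeR adjusted p = 0.00195), with −2.38 (SE 0.33) in blf13 and −0.99 (SE 0.31) in nal1.

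HORVU.MOREX.r3.7HG0725810, on 7H, was even across the mutant libraries, at 0.963, 0.978 and 0.944 CPM in blf13 and 0.872, 0.788 and 0.836 CPM in nal1. Bonus had 1.67, 1.14 and 1.58 CPM and Sebastian 2.32, 2.29 and 2.96 CPM. As the rule asked, the wild types were higher in every library, with a narrower gap in Bonus than in Sebastian. The mean log2 fold change was −1.10 (SE 0.14, edgeR adjusted p = 0.00132), with −0.59 (SE 0.20) in blf13 and −1.62 (SE 0.20) in nal1. For the difference between these effects the edgeR adjusted p was 0.0524, and 0.0439 with the trend with level removed. With the trend with level removed, the mean log2 fold changes of these 4 genes were 2.33, 1.83, −1.76 and −1.25 in the order given (edgeR adjusted p = 1.79e-05, 2.43e-06, 0.00166 and 0.000714).

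**Figure D1:**
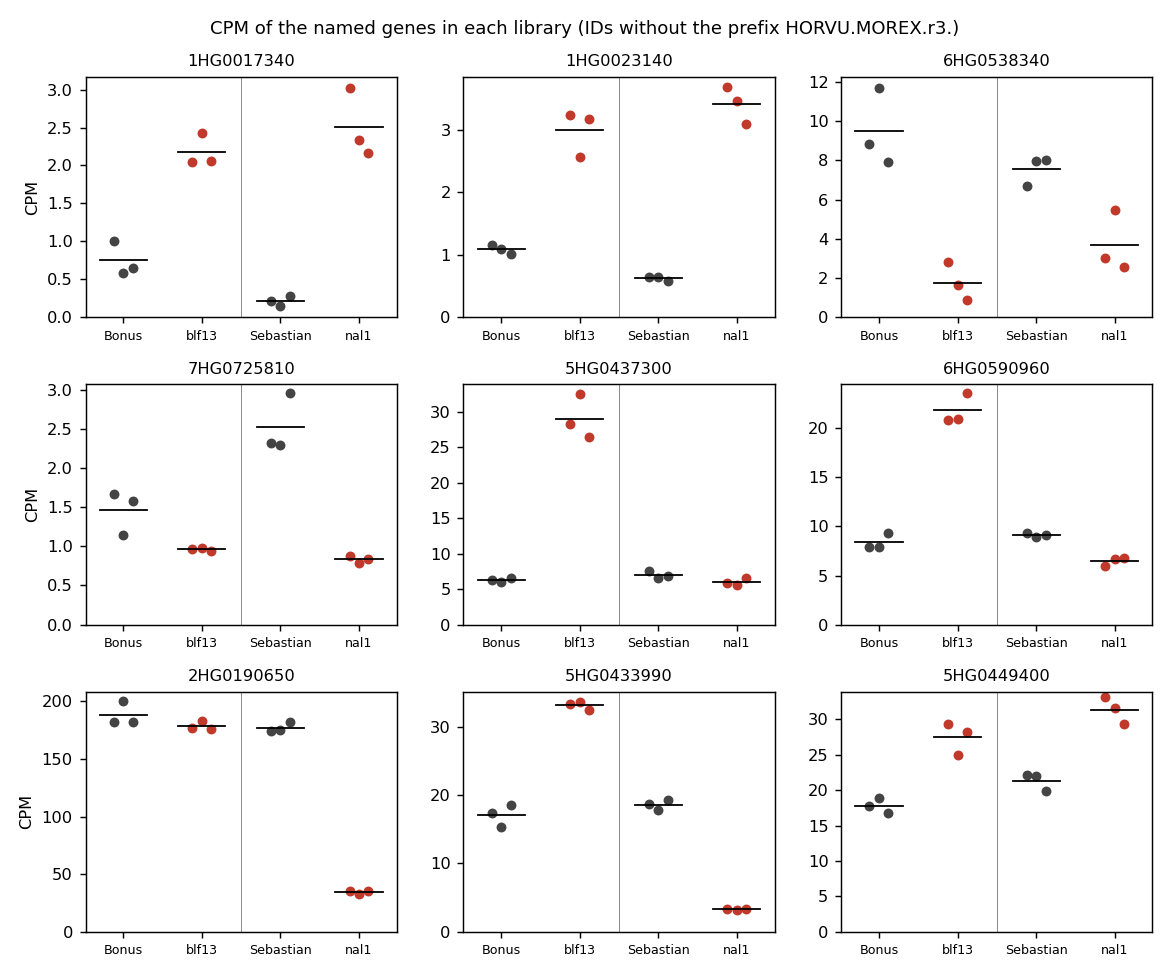
CPM (linear axis from 0) of the 9 named genes in each of the 12 libraries, with wild types in grey, mutants in red and a line at the mean of 3 libraries. The first 4 panels show genes named for a change in the same direction in both mutants, though not always of equal size. The next 4 show genes named for unequal effects, and the last is HORVU.MOREX.r3.5HG0449400, at 27.5 CPM in blf13 against 17.8 in Bonus.

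Over all tested genes, 2756 (12.3%) passed an edgeR adjusted p under 0.05 for the mean effect, 1142 higher (5.09%) and 1614 lower (7.19%) in the mutants. The 2 sets were of different kinds. Genes that rose had a median level of 5.17 CPM and a median mean log2 fold change of 0.53, with 0.42 in blf13 and 0.62 in nal1. Genes that fell had a median level of 76.6 CPM and a median change of −0.19, with −0.16 in blf13 and −0.21 in nal1. Changes of 2-fold or more were 189 among the genes that rose and 39 among those that fell, and 307 of the 1614 lower genes reached a fold of 1.2. When the test asked for a fold above 1.2 (edgeR's glmTreat), 58 genes were higher and 38 lower. Libraries of mutant and wild type were fully separated in both cultivars, in the direction of the call, for 302 of the higher genes (26.4%) and 787 of the lower genes (48.8%). Over all tested genes, 1.62% were separated with the mutants above and 4.07% with the mutants below. Separation rests on the same libraries as the calls, so it is more frequent among called genes by construction and adds no support.

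The number of calls, more than the direction, rested on single libraries. Omission of blf13 replicate 1 left 384 higher and 691 lower genes, and omission of blf13 replicate 2 left 757 and 1085. For Bonus, 708 higher and 1192 lower genes were called when replicate 1 was omitted, and 624 and 999 when replicate 2 was. For nal1 the counts were 467 higher and 801 lower with replicate 2 omitted and 548 and 912 with replicate 3 omitted. For Sebastian they were 462 and 730 with replicate 2 omitted and 419 and 736 with replicate 3 omitted. With replicate 2 of blf13 and of Bonus both left out, 405 genes were higher and 598 lower. Other omissions raised both counts, to 1476 higher and 1761 lower genes without blf13 replicate 3. Without Bonus replicate 3 they were 1267 and 1979, and without Sebastian replicate 1 they were 1365 and 1706. Lower genes outnumbered higher ones in each of these cases, but not when nal1 replicate 1 was omitted, which gave 1375 higher and 1330 lower genes.

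Direction followed expression level closely. Of 2068 genes whose level averaged over 100 CPM, 675 fell and 26 rose in the mutants, so that 96.3% of the 701 called genes of this class were lower. Among 8690 genes of 10 to 100 CPM, 351 were higher and 793 lower. Below that the balance turned, with 600 higher and 122 lower of 7694 genes at 1 to 10 CPM, and 165 higher and 24 lower of 3985 genes under 1 CPM. The shift was not limited to called genes, since the median log2 fold change of all genes in these 4 classes, from the highest level to the lowest, was −0.094, −0.035, 0.080 and 0.20. Both mutants showed it, at −0.10 and −0.097 over 100 CPM in blf13 and nal1 and at 0.061 and 0.10 for 1 to 10 CPM. Small changes could pass among abundant genes, whose median SE of the mean effect was 0.043, against 0.13 at 1 to 10 CPM. The 675 lower genes over 100 CPM became 344 when blf13 replicate 1 was omitted, 386 or 432 when nal1 replicate 2 or 3 was, and 356 or 363 when Sebastian replicate 2 or 3 was.

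**Figure D2:**
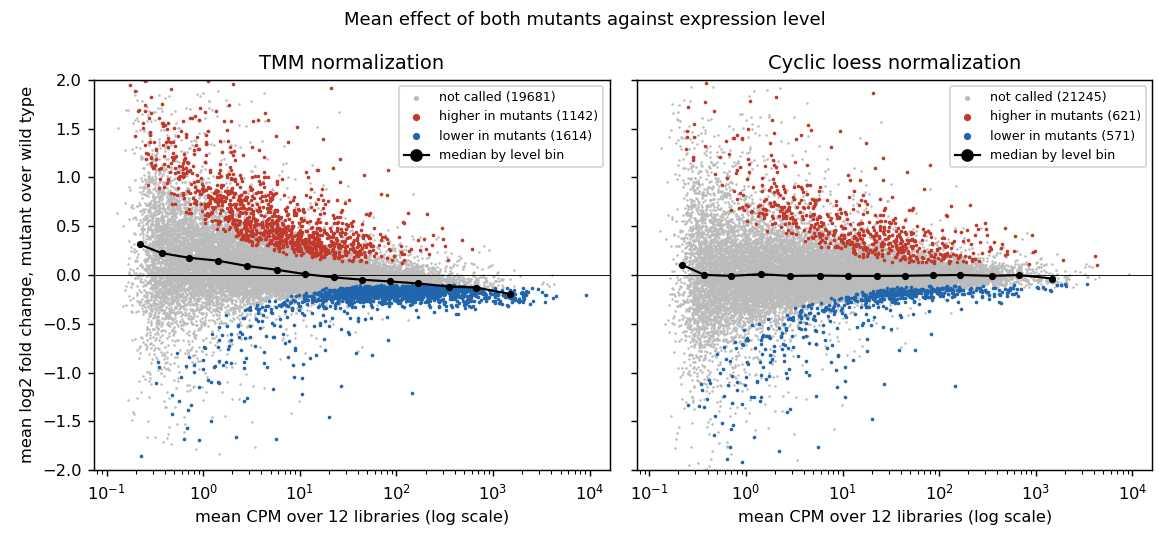
Mean log2 fold change of mutants over wild types (vertical axis, cut at −2 and 2) against the mean CPM over 12 libraries (log axis), with TMM on the left and cyclic loess normalization on the right. Points are the 22437 tested genes, red and blue where called higher or lower, and the black line joins the medians of level bins. On the left the line runs from 0.31 at the lowest levels to −0.20 at the highest, and on the right it lies near 0 except in the lowest bin. Beyond the vertical limits lie 57 genes on the left and 51 on the right.

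The trend was measured in each library as a level tilt. This is the median over genes above 100 CPM of the log2 CPM, less its mean over the 6 libraries of the same cultivar, minus the same median over genes of 1 to 10 CPM. A negative tilt means that abundant genes were low relative to weakly expressed ones. The tilt was −0.13, −0.081 and −0.012 in blf13 replicates 1, 2 and 3 and 0.041, 0.12 and 0.073 in Bonus. It was −0.053, −0.11 and −0.12 in nal1 and 0.024, 0.12 and 0.11 in Sebastian. Every mutant library was negative and every wild-type library positive, with blf13 replicate 3 and Sebastian replicate 1 nearest to 0. The mean difference between mutant and wild type was −0.164 on the log2 scale, with −0.151 in the Bonus and −0.177 in the Sebastian background. An exact permutation test, two-sided and with labels permuted within each cultivar, gave p = 0.005, the smallest p that its 400 arrangements allow. The level classes had been seen to differ in these data before this test was chosen, so its p describes a known pattern.

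In terms of reads, genes over 100 CPM took 64.1% to 65.1% of the reads in tested genes in blf13 and 66.0% to 66.6% in Bonus. The same share was 63.8% to 64.6% in nal1 and 65.4% to 66.0% in Sebastian. Genes of 1 to 10 CPM took 3.13% to 3.45% in blf13 against 2.89% to 3.01% in Bonus, and 3.32% to 3.52% in nal1 against 2.92% to 3.14% in Sebastian. Mutant and wild-type libraries thus did not overlap in either share within a cultivar. Reads in genes overlapped within each cultivar, with 26717701 to 38495728 in blf13 and 20207646 to 29173654 in Bonus, and 14831979 to 30734248 in nal1 and 23296179 to 62995658 in Sebastian. With all libraries thinned to the depth of the smallest, the difference in tilt was −0.167 (exact permutation p = 0.005). This p again describes a pattern already seen in these libraries. RNA quality values are not given in the labels, and the part of RNA quality or library preparation in the tilt was not tested.

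**Figure D3:**
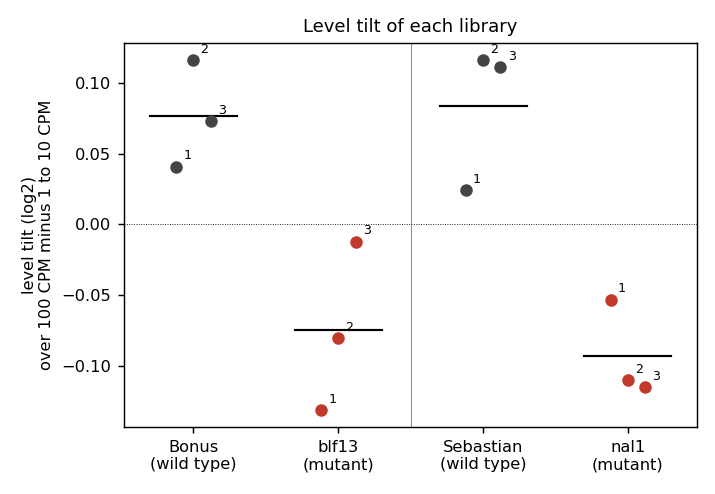
Level tilt (log2) of each library by genotype, with replicate numbers beside the points, wild types in grey, mutants in red and a line at the mean of 3 libraries. The 6 mutant libraries lie between −0.13 and −0.012 and the 6 wild-type libraries between 0.024 and 0.12.

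Cyclic loess normalization removes such a trend by fitting a smooth curve of the difference between libraries against level, and it treats the whole trend as unwanted, whatever its source. With it, 1192 genes (5.31%) passed the edgeR test of the mean effect, 621 higher (2.77%) and 571 lower (2.54%). The higher share of called genes went from 41.4% to 52.1%. This share with loess depended on single libraries. With 1 library left out it ran from 47.2%, without blf13 replicate 1 or nal1 replicate 3, to 60.2%, without nal1 replicate 1 (828 higher and 548 lower genes). Of the called genes, 1061 passed in both fits, which is 38.5% of the 2756 called without loess and 89.0% of the 1192 called with it, and all 1061 kept their direction. These were 538 higher genes (2.4% of those tested) and 523 lower genes (2.33%). Loess left 604 higher and 1091 lower genes below the threshold and added 131.

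As a share of the genes tested, calls fell most over 100 CPM, from 33.9% to 8.95%, against 13.2% to 6.31% at 10 to 100 CPM. Over 100 CPM, 77 genes were higher and 108 lower with loess, and each of these 108 had also been lower without it. At 10 to 100 CPM 276 were higher and 272 lower, at 1 to 10 CPM 228 and 150, and under 1 CPM 40 and 41. The median change of called genes was 0.45 for higher and −0.24 for lower genes, and their median levels were 14.5 and 25.5 CPM. With a fold above 1.2 asked for, 29 genes were higher and 45 lower by glmTreat. The loess counts also rested on single libraries. Omission of blf13 replicate 1 left 154 higher and 172 lower genes, and omission of blf13 replicate 2 left 386 of each. For Bonus replicates 1, 2 and 3 omitted in turn, 278, 307 and 945 genes were higher and 309, 320 and 955 lower. For nal1 replicates 2 and 3, 189 and 204 genes were higher and 205 and 228 lower, and for Sebastian replicates 2 and 3, 154 and 166 were higher and 169 and 184 lower. Without blf13 replicate 3, 860 genes were higher and 591 lower, and without Sebastian replicate 1, 788 and 559. The 108 lower genes over 100 CPM ranged from 31, with blf13 replicate 1 omitted, to 218, with Bonus replicate 3 omitted. Deviations of blf13 and Bonus libraries with the same number correlated at 0.235, 0.265 and 0.238, though the labels do not say that numbers pair libraries. A replicate block set within cultivars gave 380 higher and 368 lower genes.

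**Figure D4:**
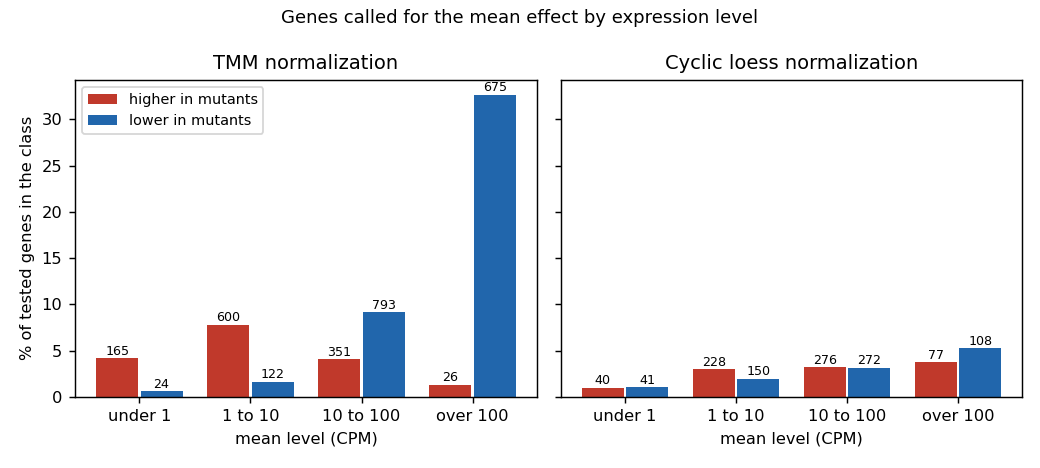
Share of tested genes called higher (red) or lower (blue) in the mutants, in % of the genes of each level class, with the number of genes over each bar, for TMM (left) and cyclic loess (right) normalization. Without loess 675 of 2068 genes over 100 CPM were lower, and with loess 108.

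A stricter question is which genes changed in both mutants in the same direction, rather than on average. For it the larger of both single p-values was taken for each gene, set to 1 where the directions differed, and adjusted over all genes. By this edgeR test 1 gene (0.00446%) was higher and none (0%) lower, with 411 higher and 794 lower genes at an unadjusted p under 0.05. With loess, 2 genes (0.00891%) were higher and none lower, with 323 and 296 genes at an unadjusted p under 0.05. The gene found in both fits was HORVU.MOREX.r3.1HG0023140, described above, with an edgeR adjusted p of 0.0116 without and 0.0319 with loess. The second, HORVU.MOREX.r3.5HG0449400 on 5H, is named after its values were seen. It stood at 29.4, 25.0 and 28.2 CPM in blf13 against 17.8, 18.9 and 16.8 CPM in Bonus, and at 33.1, 31.6 and 29.3 CPM in nal1 against 22.1, 22.0 and 19.9 CPM in Sebastian. Its effects were close to each other, with log2 fold changes of 0.62 (SE 0.08) and 0.56 (SE 0.08), and the test of both gave an edgeR adjusted p of 0.0716 without and 0.0411 with loess. DESeq2 put 4 genes higher and 28 lower in this test, against 1 and 0 with edgeR. No gene passed with a replicate block, with replicate 2 of blf13 and of Bonus left out, with the libraries thinned, or without blf13 replicate 1 or 3 or any 1 of the Bonus replicates. Without blf13 replicate 2, 2 genes were higher, and with loess no gene passed without any 1 library other than blf13 replicate 2. The small number of genes in this test does not show that the others changed in 1 mutant only.

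The fitted effects of the mutants were often unequal in size. Among the genes called without loess, the weaker of both effects had the same sign and at least 0.5 times the size of the stronger in 547 of 1142 higher genes (47.9%) and 959 of 1614 lower genes (59.4%). With loess these were 277 of 621 (44.6%) and 260 of 571 (45.5%). The same share was not taken over all tested genes. Without loess the median SE of a single effect was 0.122 in each mutant, beside a median change of −0.188 in lower genes. A weaker effect under 0.5 times the stronger can therefore also arise by noise where true effects are equal. The effect of nal1 was the larger for 69.3% of higher and 65.5% of lower genes, and for 71.5% and 69.2% with loess, beside 55.3% and 55.2% of all tested genes in these fits. Among higher genes of 2-fold or more, blf13 was the stronger in 88 and nal1 in 101, and with loess in 32 and 33. At 4-fold or more, blf13 was the stronger in 16 of 19 higher genes, and in 8 of 10 with loess. Among lower genes of 2-fold or more, blf13 was the stronger in 20 and nal1 in 19, and with loess in 27 and 34. At 4-fold or more these were 6 and 5, and 5 and 6 with loess. Shares over all tested genes of these sizes were not taken. A test of the difference between both effects, which uses the same 12 libraries, passed for 143 higher genes (12.5%) and 138 lower genes (8.55%) of those called without loess, beside 5.22% of all tested genes. With loess it passed for 106 (17.1%) and 130 (22.8%), beside 5.82%. With loess, of the 61 lower genes with a mean change of 2-fold or more 31 passed the test of the difference, while in 11 the weaker effect had the same sign and at least 0.5 times the size of the stronger. Of the 65 higher genes of that size, 19 passed it and 28 had such even effects. Of the 10 higher and 11 lower genes of 4-fold or more, 7 and 8 passed it.

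**Figure D5:**
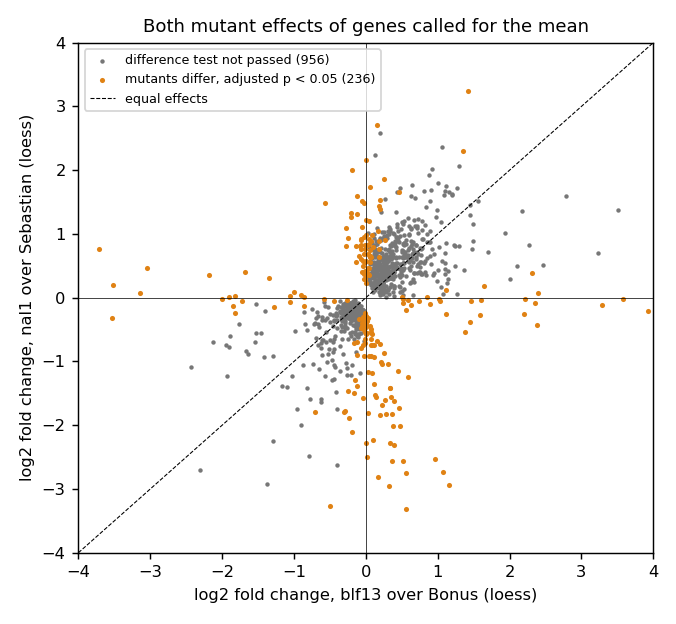
Log2 fold change of nal1 over Sebastian against that of blf13 over Bonus, both with cyclic loess normalization, for the 1192 genes called for the mean effect. The dashed line marks equal effects, 236 genes in orange passed the test of the difference and 956 in grey did not, and 17 genes lie beyond the axes. Many orange points lie along an axis, where 1 mutant accounts for the mean.

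The 4 genes named for unequal effects were called for the mean in both fits and had the smallest p for the difference. HORVU.MOREX.r3.5HG0437300, on 5H, stood at 28.2, 32.5 and 26.4 CPM in blf13 and 6.27, 6.05 and 6.55 CPM in Bonus. It had 5.90, 5.58 and 6.54 CPM in nal1 and 7.49, 6.51 and 6.80 CPM in Sebastian, where the groups overlapped. The mean of 1.00 on the log2 scale (SE 0.07, edgeR adjusted p = 9.02e-06) thus came from 2.21 in blf13 and −0.21 in nal1. HORVU.MOREX.r3.6HG0590960, on 6H, had 20.9, 21.0 and 23.6 CPM in blf13 and 7.89, 7.89 and 9.34 CPM in Bonus. In nal1 it had 5.97, 6.69 and 6.78 CPM against 9.34, 8.91 and 9.16 CPM in Sebastian, so that it rose in blf13 (log2 fold change 1.38) and fell in nal1 (−0.49), with a mean of 0.45 (SE 0.07, edgeR adjusted p = 0.00286). That mean did not pass when a fold above 1.2 was asked for (glmTreat adjusted p = 0.152).

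Both of the lower genes named for unequal effects owed their mean to nal1. HORVU.MOREX.r3.2HG0190650, on 2H, had 35.3, 33.0 and 35.7 CPM in nal1 and 174, 175 and 182 CPM in Sebastian, against 177, 183 and 176 CPM in blf13 and 182, 200 and 182 CPM in Bonus. Its mean log2 fold change was −1.21 (SE 0.04, edgeR adjusted p = 1.14e-09), with −2.35 in nal1 and −0.071 in blf13. HORVU.MOREX.r3.5HG0433990, on 5H, had 3.29, 3.22 and 3.39 CPM in nal1 and 18.7, 17.8 and 19.2 CPM in Sebastian, but 33.3, 33.6 and 32.5 CPM in blf13 against 17.3, 15.3 and 18.6 CPM in Bonus. A mean of −0.77 (SE 0.06, edgeR adjusted p = 1.17e-05) stood here for a fall of 2.50 on the log2 scale in nal1 and a rise of 0.96 in blf13. A passed test of the mean therefore does not by itself mark a gene as changed in the same way in both mutants.

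Genes that met the rule for a change in both mutants differed in level by direction. The 112 higher genes had a median level of 5.69 CPM and a median mean log2 fold change of 0.66, 0.58 with loess, and 67 of them changed 1.5-fold or more. The 185 lower genes had a median level of 50.8 CPM and a median change of −0.26, −0.20 with loess, and 10 changed 1.5-fold or more. Over 100 CPM lay 3 of the higher and 55 of the lower genes. These counts follow from the rule and carry no test.

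Called genes came from all chromosomes in similar shares. From 1H to 7H, 11.4% (7H) to 13.4% (4H) of the tested genes were called without loess, and 4.84% (1H) to 5.77% (3H) with it. The balance of directions with loess ran from 81 higher and 56 lower on 1H and 112 and 80 on 2H to 80 and 86 on 7H, as a description without a test. Called genes of 2-fold or more numbered 12 on 1H and 24 on 5H with loess, of 2828 and 3570 tested. The IDs carry no coordinates, and none are given.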

How the data were processed

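Per the labels, TRIzol served to extract total RNA, and a NEBNext Ultra RNA kit to make libraries. The deposited files hold raw read counts per gene for each library. The submitters' processing notes name STAR 2.7.3a. Genome build, annotation release and trimming were not given in the sources used here. Of these files, the counts made without regard to strand were used (50.5% to 50.7% of stranded counts were on the sense strand), so antisense neighbours cannot be told apart, and near-identical copies may be undercounted. The 4 summary lines per file, 15.7% to 37.9% of reads, were left out.

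The counts went into edgeR 4.0.16 under R 4.3.3 (TMM, filterByExpr, quasi-likelihood F test, 1 coefficient per genotype over 12 libraries), with the contrast ((blf13 − Bonus) + (nal1 − Sebastian)) / 2. Standard errors derive from the F statistic. The same fit was repeated with offsets from cyclic loess (limma 3.58.1, span 0.7, 3 iterations) on log2 CPM with 0.5 added to counts. A fold is 2 to the power of the fitted log2 change. The tilt used log2(CPM + 0.5). Alternatives were DESeq2 1.42.0, RLE scaling, no filter, thinned counts, glmTreat, replicate blocks and left-out libraries. The code was tested on simulated data.

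Genes were named as the 2 highest and 2 lowest mean changes among genes moved in both mutants, and the 2 higher and 2 lower genes with the smallest p for the difference between mutants, each with at least 1 CPM in the higher genotype of both cultivars. Members, lists and tests were chosen with earlier results of these data known. Replicate pairs differed by 3.98 to 11.8 times the sampling noise (chi-square per degree of freedom), so none was a duplicate. The labels do not say that numbers pair libraries. The deviations of same-numbered blf13 and Bonus libraries from their group means correlated across 18452 genes at 0.235, 0.265 and 0.238, which was taken as possible pairing. Those of nal1 and Sebastian correlated at −0.164, −0.0591 and 0.0834, which was not. Across cultivars, blf13 and nal1 gave −0.327, 0.108 and −0.0668, so values of this size also arose without a known pairing. The values for 1 pair of groups are not independent, since deviations cancel within each group. Depth limits the precision of weak genes, and no growth or sequencing batch is named in the labels.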

Additional observations from a re-analysis of the deposited data

Results flagged for a closer look

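For 6 of the named genes the effect of 1 mutant differed from that of the other by the edgeR test of the difference without loess (blf13 effect minus nal1 effect, log2). It was −1.89 for HORVU.MOREX.r3.1HG0017340 (adjusted p = 0.0131) and −1.01 for HORVU.MOREX.r3.1HG0023140 (adjusted p = 0.0269), both higher in the 2 mutants and more so in nal1. It was 2.41 for HORVU.MOREX.r3.5HG0437300 (adjusted p = 8.04e-07), higher in blf13, and 1.87 for HORVU.MOREX.r3.6HG0590960 (adjusted p = 3.22e-06), higher in blf13 and lower in nal1. It was 2.28 for HORVU.MOREX.r3.2HG0190650 (edgeR adjusted p = 1.70e-09), lower in nal1, and 3.46 for HORVU.MOREX.r3.5HG0433990 (edgeR adjusted p = 1.70e-09), higher in blf13 and lower in nal1. The last 4 were named by the p of this same test, so their differences describe how they were chosen. HORVU.MOREX.r3.7HG0725810 passed the edgeR test of the difference with loess only, at 1.10 (adjusted p = 0.0439, and 0.0524 without loess), being lower in both mutants and more so in nal1.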

How the results depend on the processing

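Without the filter on low counts, the balance turned, with 1973 higher and 1516 lower genes (56.5% higher in place of 41.4%). The 1142 higher genes became 667 with thinned counts, 621 with loess, 405 without replicate 2 of blf13 and of Bonus, and 58 with glmTreat, and the 1614 lower genes became 571, 598 and 38 in the last 3 of these. Leaving out 1 library gave 384 to 1476 higher and 691 to 1979 lower genes. With loess, the 621 higher and 571 lower genes became 380 and 368 with a replicate block within each cultivar, 170 and 201 without that replicate 2 pair, 362 and 335 with thinned counts, and 29 and 45 with glmTreat, and they became 1374 and 743 without the filter. Leaving out 1 library gave 154 to 945 and 169 to 955. The 675 lower genes over 100 CPM became 285 without the replicate 2 pair, 108 with loess and 1 with glmTreat, and 344 to 755 without 1 library, and the 108 with loess became 41, 1, and 31 to 218.

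In the test of both mutants, the 1 higher gene became 60 without the filter, 4 with DESeq2, 2 with loess, and 0 with either replicate block, with thinned counts or without the replicate 2 pair, and 0 to 2 without 1 library. Lower genes went from 0 to 22 without the filter and 28 with DESeq2. With loess, the 2 higher genes became 34 and the 0 lower genes 6 without the filter, and higher genes became 0 with either replicate block, thinned counts or the pair left out, and 0 to 2 without 1 library. The cause of these moves was not tested, apart from the fewer libraries or reads, or the larger fold asked for, that some settings have by construction.

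With the replicate number as a block over all libraries, 1038 genes were higher and 1517 lower, and 836 and 1161 with the block within each cultivar. The mean effects of the 9 named genes passed with both blocks, and the tests of the difference between mutants were not repeated with a block. With DESeq2 1236 genes were higher and 1706 lower. The difference in level tilt kept its sign and passed the exact permutation test in the 15 alternatives run, from −0.181 to −0.0752, and from −0.181 to −0.149 without 1 library. These alternatives reuse the libraries in which the pattern was first seen, so they do not test it independently. The mean effect of 8 of the 9 named genes passed in all 21 alternatives, and that of HORVU.MOREX.r3.6HG0590960 in 20. All named genes but HORVU.MOREX.r3.5HG0449400 were chosen because the mean passed with and without loess, so their pass with loess was fixed by the rule. The other alternatives refit the libraries that chose the genes, so they give no independent support. Depth limits genes under 1 CPM, whose median SE of the mean effect was 0.295.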

Other observations

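The most abundant transcripts took a smaller part of the reads in both mutants. The 100 genes with the most reads in a library held 18.2% to 18.9% of the reads in genes in blf13 and 19.6% to 20.2% in Bonus, and 17.5% to 18.1% in nal1 and 18.5% to 19.3% in Sebastian. For the 10 genes with the most reads the shares were 4.33% to 4.50% in blf13, 4.63% to 4.65% in Bonus, 4.14% to 4.37% in nal1 and 4.35% to 4.47% in Sebastian, and nal1 and Sebastian overlapped.

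Of 428 tested genes with at least 1 CPM in the higher genotype of 1 background and under 0.1 CPM in both genotypes of the other, 3 were called without loess and 1 with it, beside 12.3% and 5.31% of all tested genes. In 221 of them the other background had no count at all, and a mean over both mutants is not defined there, so these counts say nothing of such genes' responses.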
